A study of Mus musculus with 6 samples.

Results

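The 10 genes described here encode the stress-response and export machinery of the endoplasmic reticulum (ER): the membrane-bound transcription factors Creb3l1, Creb3l2 and Atf6, the factors Atf4, Xbp1 and Ddit3, the chaperones Hspa5 and Hsp90b1, and the vesicle coat components Sec23a and Sec24d. They were taken by symbol from a table of 23930 amplicons, and all 10 were found and passed the filter on low values. They were selected on earlier readings of the same RPM values, knockout against control, so their own differences between the groups are given as a description, without p-values, and a count of them past a threshold supports nothing. The RNA was taken from humerus shafts, the middle part of the upper forelimb bone, of E16.5 mouse embryos, with 3 libraries per group. The knockout group had the genotype Prrx1Cre; Stat3C/C, in which a Cre recombinase driven from Prrx1, a gene active in limb bud mesenchyme, acts on both conditional copies of the transcription factor gene Stat3. The controls had the genotype Stat3C/+, with 1 conditional copy and no driver listed, and are called wild type in the labels. Cells of the shaft that do not descend from limb mesenchyme, such as blood cells, would not be expected to carry the deletion. Nothing in the labels says that the 3 libraries of a group came from separate embryos, so p-values measure the spread between these libraries, which may be technical.

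Osteoblasts and chondrocytes secrete large amounts of collagen, and procollagen is folded in the ER before it leaves in vesicles coated with the COPII complex. When unfolded protein accumulates, 3 sensors respond: IRE1, encoded by Ern1, which splices the Xbp1 transcript, PERK, encoded by Eif2ak3, which favours translation of Atf4, and ATF6, which is cut in the Golgi by the proteases of Mbtps1 and Mbtps2 to release a transcription factor. CREB3L1, also named OASIS, and CREB3L2, also named BBF2H7, are released in the same way. They are known in bone and cartilage, where mice without Creb3l1 have fragile bone and mice without Creb3l2 fail to secrete cartilage matrix and lose Sec23a expression. The values below are transcript readings, so they do not show splicing of Xbp1, translation of Atf4 or cutting of ATF6, CREB3L1 or CREB3L2.

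Values are RPM, the reads of an amplicon scaled to a common library size. Each gene is read at 1 short amplicon, so levels of different genes are not compared with each other. The libraries held 9126493 to 13376550 reads, and the 10 genes were covered by 169 reads (the lowest, for Ddit3) to 35120 reads (the highest, for Hsp90b1) in a library. The Stat3 amplicon itself read 208 ± 5.82 RPM in controls against 193 ± 20.1 RPM in knockout libraries (mean ± SD, n = 3 each). Its log2 difference was -0.11 ± 0.08 (SE, limma, adjusted p = 0.380), and p was 0.2 by an exact permutation test (two-sided), the smallest value 3 against 3 allows being 0.1. Its place relative to the deleted part is not known here, so it does not check the labels. Among markers of the cells the shaft could hold, 6 of 6 tested osteoblast genes, 4 of 6 cartilage genes, 3 of 7 muscle genes and 5 of 5 neutrophil genes were lower in the knockout, and 4 of 6 macrophage genes were higher and 1 lower (limma, adjusted p under 0.05), where 11.0% of all amplicons were lower and 5.71% higher. Of the tested genes on other lists, 2 of 5 endothelial genes were lower, and 1 of 6 osteoclast genes was higher and 1 lower. Higher genes were also 1 of 3 erythroid and 2 of 2 epidermal genes. The summed level of 5 listed epidermal genes, tested or not, was 3.87 to 4.76 RPM in controls against 13.0 to 16.8 RPM in knockouts. In bulk tissue, fewer cells of a type and less RNA per cell cannot be told apart.

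Creb3l1 stood furthest from the controls of the 10 genes. It read 121, 106 and 88.4 RPM in control libraries 1 to 3 and 58.8, 52.6 and 38.5 RPM in knockout libraries 1 to 3. The highest knockout library lay below the lowest control, and the spread within each group was wide, at 105 ± 16.4 RPM in controls against 49.96 ± 10.4 RPM in knockout libraries (mean ± SD, n = 3 each). The ratio of the means was 0.475, and the log2 difference of RPM + 1 was -1.07 ± 0.13 (SE, n = 3 each). It held rank 30 from the lowest among the 12846 amplicons tested. Its relative Creb3l2 read 89.8, 77.4 and 84.4 RPM in controls against 68.3, 67.4 and 73.5 RPM in knockout libraries. These groups did not overlap either, but the nearest libraries were 77.4 and 73.5 RPM, and the log2 difference was -0.26 ± 0.09 (SE, n = 3 each). Creb3l1 thus differed more than Creb3l2: with the control mean of the Creb3l1 to Creb3l2 ratio set to 100%, the controls lay at 107, 109 and 83.4% and the knockouts at 68.5, 62.2 and 41.8%. The Creb3l1 gene lies on chromosome 2 from 91982328 to 92024502 and Creb3l2 on chromosome 6 from 37327255 to 37442146 (GENCODE M21, GRCm38).

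**Figure D1:**
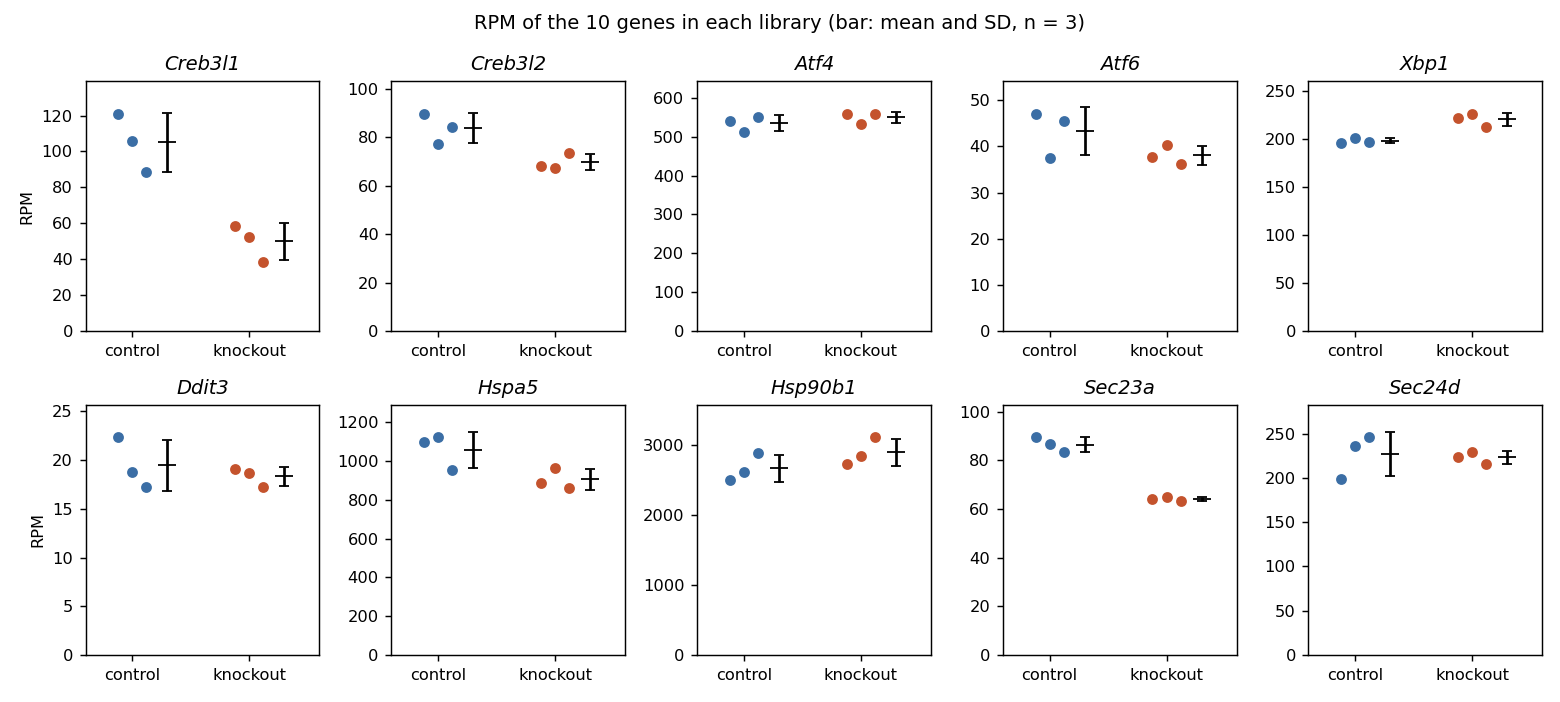
RPM of the 10 genes in each of the 3 control and 3 knockout libraries (points), with the mean and SD of each group as a bar; every axis starts at 0. Creb3l1 lies at 88.4 to 121 RPM in controls against 38.5 to 58.8 RPM in knockout libraries, and Sec23a at 83.4 to 89.5 and 63.2 to 64.98 RPM, while the groups of Atf4, Atf6, Ddit3, Hspa5, Hsp90b1 and Sec24d overlap.

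Creb3l1 is expressed in osteoblasts, and osteoblast genes were lower in the same libraries. The summed level of the 6 measured osteoblast markers (Sp7, Runx2, Ibsp, Spp1, Alpl and Dmp1) was 9600 to 10719 RPM in controls against 6929 to 7020 RPM in knockout libraries. Most of this sum came from Spp1, with means of 5417 RPM in controls and 4509 RPM in knockouts, and Ibsp, with 4328 and 2097 RPM. Relative to Sp7, the transcription factor gene of committed osteoblasts, Creb3l1 was at 99.5, 96.0 and 105% of the control mean in controls against at 108, 73.8 and 73.8% in knockouts. Relative to Ibsp, the bone sialoprotein gene, it was at 121, 92.6 and 86.2% in controls against at 118, 103 and 72.7% in knockouts. The groups overlapped in both ratios. Against Runx2, the factor gene that starts the osteoblast lineage, they did not overlap, with 117, 97.6 and 85.2% in controls against 78.9, 79.2 and 61.0% in knockouts. Against the collagen gene Col1a1, a known target of CREB3L1, the knockouts lay lowest, at 55.5, 57.4 and 35.1%, with controls at 123, 99.4 and 77.7%. Sp7 and Ibsp had the lowest log2 differences of the 6 osteoblast markers, at -0.75 and -1.04. Runx2 was at -0.62, Alpl at -0.50, Dmp1 at -0.33 and Spp1 at -0.26. Ratios of Creb3l1 to Alpl, Dmp1 and Spp1 were not computed. The part that fewer or less active osteoblasts have in the Creb3l1 reading was not tested.

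**Figure D2:**
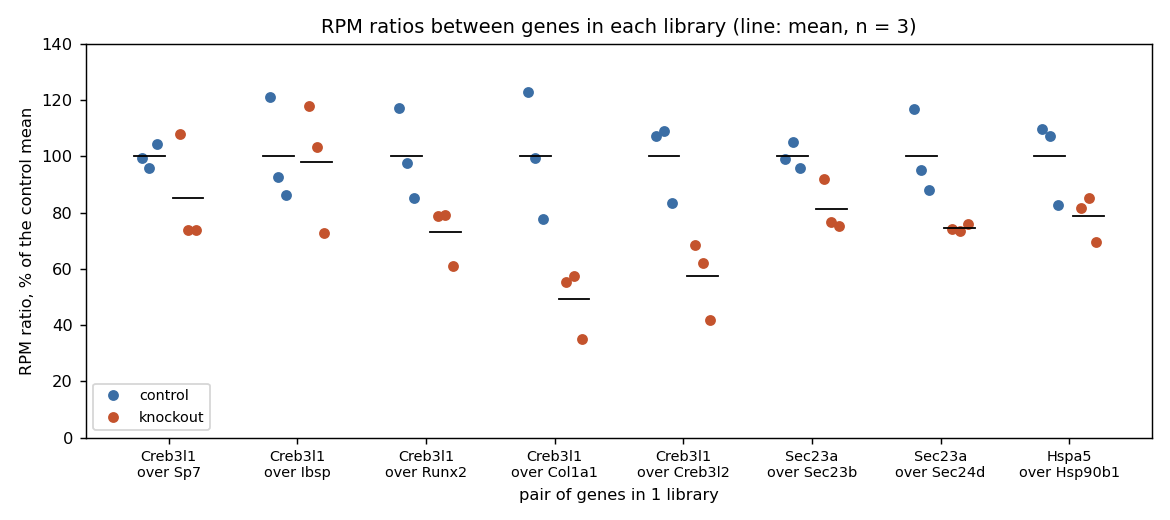
Ratio of the RPM of 2 genes within each library, as a percentage of the control mean of that ratio, for 3 control and 3 knockout libraries (points) with the group mean (line). The ratios of Creb3l1 to Sp7 and to Ibsp overlap between the groups, and those to Runx2, Col1a1 and Creb3l2 do not.

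The factors of the general stress response differed little. Atf4, the factor translated when PERK is active, read 541, 512 and 551 RPM in controls against 559, 533 and 558 RPM in knockout libraries, with a log2 difference of 0.04 ± 0.07 (SE, n = 3 each). Ddit3, which encodes the ATF4-induced and death-promoting factor CHOP, read 22.3, 18.8 and 17.2 RPM in controls against 19.1, 18.6 and 17.3 RPM in knockout libraries. Both genes overlapped between the groups, and all knockout libraries of Ddit3 lay within the control range. Atf6 read 47.1, 37.5 and 45.4 RPM in controls against 37.8, 40.2 and 36.2 RPM in knockout libraries, with overlap and a log2 difference of -0.18 ± 0.11 (SE, n = 3 each). Xbp1 was the only one of the 10 with every knockout library above every control, which held for 11.9% of all amplicons. It read 196, 201 and 197 RPM in controls against 222, 226 and 212 RPM in knockout libraries. Its log2 difference was small, 0.15 ± 0.07 (SE, n = 3 each). Among markers of plasma and B cells, the former known for high Xbp1, Jchain and Pou2af1 stayed under 1 RPM in every library. Mzb1 read 1.72, 1.65 and 1.07 RPM in controls against 0.762, 1.10 and 1.94 RPM in knockout libraries, and Cd79b 2.15, 1.87 and 2.05 against 2.12, 2.19 and 1.64 RPM. Both overlapped between the groups, and the part of such cells in the Xbp1 reading was not tested.

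Both chaperone genes are classic targets of ATF6 and XBP1, and their readings lay on opposite sides of 0. Hspa5, which encodes BiP, the chaperone that holds the sensors inactive, read 1098, 1123 and 954 RPM in controls against 888, 967 and 862 RPM in knockout libraries. The groups overlapped, since control library 3 lay below knockout library 2, and the log2 difference was -0.22 ± 0.08 (SE, n = 3 each). Hsp90b1, which encodes GRP94, the ER form of the HSP90 chaperones, read 2508, 2622 and 2884 RPM in controls against 2730, 2843 and 3111 RPM in knockout libraries, again with overlap and with a log2 difference of 0.12 ± 0.07 (SE, n = 3 each). The ratio of Hspa5 to Hsp90b1 was 82.9 to 110% of the control mean in controls against 69.5 to 85.3% in knockouts, which overlapped. The genes lie on chromosome 2 from 34771970 to 34777547 (Hspa5) and on chromosome 10 from 86690209 to 86705509 (Hsp90b1).

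Both promoters carry the same element, shown here because it is what the 2 chaperone genes share beyond their names. RefSeq promoter windows (250 bases before to 50 bases after the transcription start, GRCm38.p6) were on hand for 8 of the 10 genes, all but Creb3l1 and Atf6. Match positions count from the RefSeq start, so a match before it can lie within the GENCODE gene, as in Hspa5 and Sec24d. The ER stress response element, searched on both strands as CCAAT, any 9 bases and CCACG, was found in 0.137% of the 27025 genes with a window, and in Hspa5 and Hsp90b1 among these 8. Each stretch below holds 30 bases, written from 5′ to 3′ on the strand of the gene, with the match in capitals.
Hspa5, chr2:34772020-34772049, plus strand, match from -65 to -47: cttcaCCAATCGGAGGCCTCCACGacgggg
Hsp90b1, chr10:86705632-86705661, minus strand, match from -212 to -194: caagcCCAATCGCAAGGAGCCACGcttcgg
Hsp90b1, chr10:86705527-86705556, minus strand, match from -107 to -89, read on the opposite strand: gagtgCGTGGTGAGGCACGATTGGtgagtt
A match describes the letters and does not show that a factor binds there.

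The 2 coat components are partners in the inner COPII layer, where SEC23 and SEC24 proteins form the unit that gathers cargo, and mutations of human SEC23A and SEC24D cause skull and bone disorders. Sec23a read 89.5, 86.6 and 83.4 RPM in controls against 64.1, 64.98 and 63.2 RPM in knockout libraries. The 3 knockout libraries lay within 2 RPM of each other and all lay well below the controls, with means of 86.5 ± 3.08 and 64.1 ± 0.906 RPM (mean ± SD, n = 3 each). The ratio of the means was 0.741 and the log2 difference -0.43 ± 0.09 (SE, n = 3 each). Sec24d read 199, 237 and 246 RPM in controls against 224, 230 and 216 RPM in knockout libraries. All its knockout libraries lay within the control range, and the log2 difference was -0.02 ± 0.08 (SE, n = 3 each). The paralogue Sec23b, named after its values were seen, read 65.3 ± 3.02 RPM in controls against 60.0 ± 6.36 RPM in knockout libraries (mean ± SD, n = 3 each), with a log2 difference of -0.13 ± 0.10 (SE, limma, adjusted p = 0.404). The ratio of Sec23a to Sec23b was 95.9 to 105% of the control mean in controls against 75.2 to 91.8% in knockouts, and that of Sec23a to Sec24d was 88.1 to 117% and 73.5 to 76.0%, without overlap in either. Sec23a lies on chromosome 12 from 58958383 to 59012017 and Sec24d on chromosome 3 from 123267455 to 123365641 (GENCODE M21, GRCm38).

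Both coat genes hold the core of the unfolded protein response element at the start of the gene, although their readings differed. This core, TGACGTGG, is known as a binding sequence of the XBP1 and CREB3-family factors. It was searched on both strands and found in 0.714% of the genes with a window, and among the 8 genes in Sec23a and Sec24d alone. It does not overlap the ER stress response element in these windows. The 30-base stretches are written from 5′ to 3′ on the strand of the gene, with the match in capitals.
Sec23a, chr12:59011993-59012022, minus strand, match from 7 to 14 after the start: ctcctccccttTGACGTGGcagaggcggca
Sec24d, chr3:123267459-123267488, plus strand, match from -26 to -19: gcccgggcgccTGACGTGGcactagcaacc
The cyclic AMP response element TGACGTCA (2.03% of genes) and the amino acid response element core TGATGNAA (4.51% of genes), the latter a known ATF4 sequence, were found in none of the 8 windows. That says only that these letters are not within these windows.

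**Figure D3:**
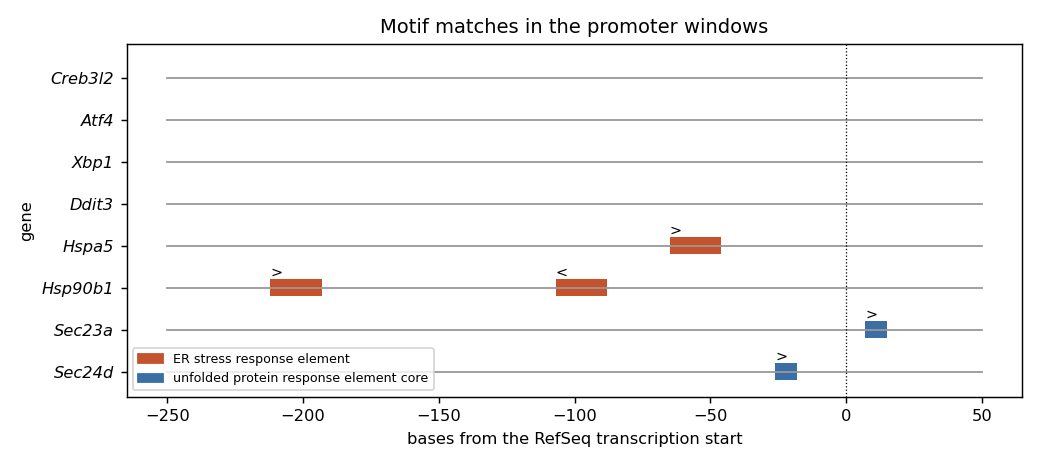
Motif matches in the RefSeq promoter windows of 8 genes, by distance in bases from the transcription start (dotted line); the marks > and < give matches on the strand of the gene and on the opposite strand. Hsp90b1 holds 2 ER stress response elements and Hspa5 holds 1, and the unfolded protein response element core lies at 7 to 14 bases after the start in Sec23a and from -26 to -19 in Sec24d.

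Set side by side, 4 of the 10 genes (Creb3l1, Creb3l2, Hspa5 and Sec23a) were past the limma threshold as lower in the knockout and 0 as higher, where 11.0% of all 12846 amplicons tested were lower, 5.71% were higher and 16.7% were called in either direction. Nothing is read from this count, because the same comparison was known when the genes were chosen. At an unadjusted p under 0.05, limma also gave 4 lower and 0 higher, but the share of all amplicons at that threshold is not given here. After adjustment, edgeR gave 2 lower and 0 higher, against 922 lower and 1052 higher of all 12846 amplicons. DESeq2 gave 2 lower and 1 higher, the latter being Xbp1, against 775 lower and 998 higher of all amplicons. The groups did not overlap in 3 genes as lower and 1 as higher, against 21.9% and 11.9% of all amplicons (33.8% in either direction). The median log2 difference was -0.13 over the 10 genes and -0.06 over all amplicons. With each of the 6 libraries left out in turn, the log2 difference ran from -1.19 to -0.90 for Creb3l1, -0.45 to -0.40 for Sec23a, -0.32 to -0.21 for Creb3l2 and -0.30 to -0.18 for Hspa5. The count of lower genes depended on the libraries: among these 6 fits, Creb3l2 was counted only without knockout library 3, Hspa5 only without control library 3, and neither was counted with TMM scaling factors on all libraries, with log2 differences of -0.21 and -0.17.

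**Figure D4:**
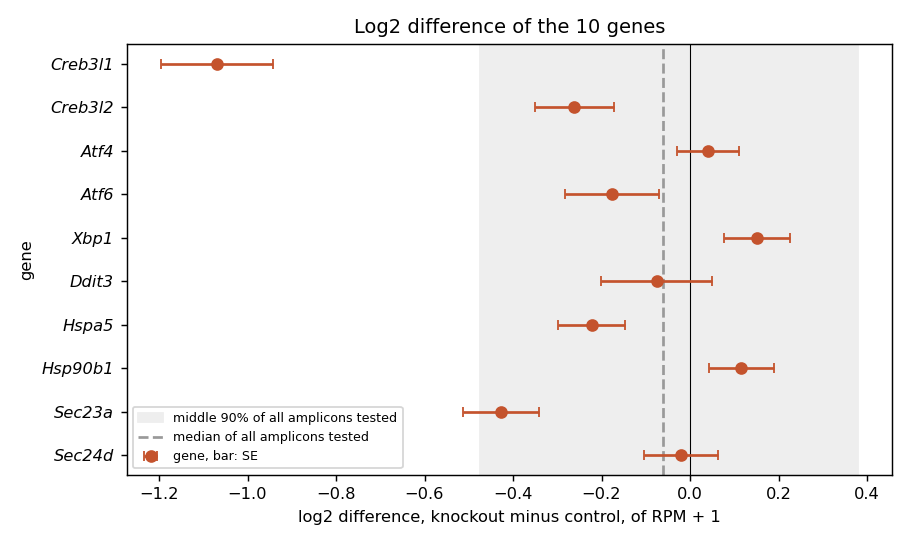
Log2 difference, knockout minus control, of RPM + 1 for the 10 genes (points, with SE, n = 3 libraries per group), over the range that holds the middle 90% of all amplicons tested (grey band, -0.47 to 0.38) and their median (dashed, -0.06). Only Creb3l1, at -1.07, lies outside the band, and Sec23a, at -0.43, lies near its lower edge.

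To place these genes in their pathway, 139 other genes were listed by role, of which 130 were in the table and 126 passed the filter. Of these 126, 21 were lower (16.7%) and 9 higher (7.14%) in the knockout (limma, adjusted p under 0.05), against 11.0% and 5.71% of all amplicons. With TMM scaling the split was 14 lower and 11 higher, against 928 lower and 1042 higher of all 12846 amplicons under that scaling. The median log2 difference of the 126 was -0.12, against -0.06 over all amplicons. This is a description of the list, and whether it stands apart from other genes was not tested.

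None of the 8 tested stress sensors, sensor-processing proteases and factor relatives was called in either direction by limma, against 16.7% of all amplicons. At an unadjusted p under 0.05, 1 was higher and 1 lower, but the share of all amplicons at that threshold is not given here. After adjustment, edgeR and DESeq2 each called 1 higher and 0 lower. Of all 12846 amplicons, edgeR called 1052 higher and 922 lower, and DESeq2 998 higher and 775 lower. Ern1 read 37.96 ± 0.613 RPM in controls against 35.4 ± 3.001 RPM in knockout libraries, and Mbtps1, the protease gene that starts the release of ATF6 and the CREB3L factors, 157 ± 4.39 and 143 ± 10.6 RPM (mean ± SD, n = 3 each). Eif2ak3 read 59.7, 45.98 and 60.5 RPM in controls against 44.3, 42.3 and 48.9 RPM in knockout libraries, with a log2 difference of -0.28 ± 0.11 (SE, limma, adjusted p = 0.0789). Control library 2 was the low one, and without it the log2 difference was -0.41 (limma, adjusted p = 0.0269). That was the only 1 of the 6 fits with a library left out that passed the threshold, and 2 of all 17 alternatives passed it. With TMM scaling the log2 difference was -0.23 (limma, adjusted p = 0.168). Mbtps2, the second protease, and Eif2s1, the translation factor that PERK phosphorylates, had log2 differences of -0.09 ± 0.15 and -0.04 ± 0.09 (SE).

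Among the targets of ATF4 and CHOP, 4 of 23 tested genes were lower (17.4%) and 2 higher (8.70%), against 11.0% and 5.71% of all amplicons, and 17 were not called. The lower genes included Pck2, a mitochondrial enzyme of glucose synthesis, from 24.6 ± 1.14 to 14.9 ± 2.42 RPM, and Nupr1, a stress-induced nuclear protein gene, from 38.7 ± 2.97 to 23.97 ± 3.57 RPM (mean ± SD, n = 3 each). Asns, asparagine synthetase and a classic ATF4 target, went from 34.3 ± 4.91 to 23.5 ± 2.38 RPM, a log2 difference of -0.53 ± 0.12 (SE, limma, adjusted p = 0.00475). Ddit4, an inhibitor of mTOR signalling that hypoxia and glucocorticoids also induce, was higher, from 64.6 ± 11.4 to 104 ± 11.1 RPM (limma, adjusted p = 2.03e-04). The list had a median log2 difference of -0.18.

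Of 23 ER chaperones and folding enzymes beyond Hspa5 and Hsp90b1, 4 were lower (17.4%) and 1 higher (4.35%). Those shares were 11.0% and 5.71% over all amplicons, and the median log2 difference of the list was 0.0046. Calr, which encodes calreticulin, a calcium-binding chaperone of glycoproteins, read 1299, 1306 and 1378 RPM in controls against 968, 958 and 998 RPM in knockout libraries. No knockout library came near the controls, and the log2 difference was -0.44 ± 0.07 (SE, limma, adjusted p = 1.00e-04). Manf, a secreted protein gene induced by ER stress, fell from 378 ± 9.0 to 303 ± 19.2 RPM (mean ± SD, n = 3 each). Hyou1, a large chaperone that exchanges the nucleotide of BiP, rose instead, from 39.3 ± 0.137 to 63.2 ± 5.80 RPM, a log2 difference of 0.67 ± 0.10 (SE, limma, adjusted p = 6.77e-05). Ero1l, the oxidase that reoxidizes disulfide isomerases, was at -0.43 ± 0.12, and its call was lost without control library 1 (-0.34), control library 2 (-0.39) or knockout library 2 (-0.43).

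In ER-associated degradation, the route that returns misfolded proteins to the cytosol, 5 of 15 tested genes were lower (33.3%, against 11.0% of all amplicons) and 0 higher. This was the highest share of lower genes among the 7 pathway lists, the 10 genes and the cell type markers not counted. At an unadjusted p under 0.05, limma gave 8 lower and 1 higher. The 11.0% does not apply to that looser threshold, for which the share of all amplicons is not given here. After adjustment, edgeR gave 4 lower and 0 higher, against 922 lower and 1052 higher of all 12846 amplicons. DESeq2 gave 4 lower and 1 higher, against 775 lower and 998 higher of all amplicons. Syvn1, the ubiquitin ligase HRD1 at its centre, read 136, 125 and 131 RPM in controls against 92.0, 90.4 and 86.1 RPM in knockout libraries. The groups lay far apart, with a log2 difference of -0.54 ± 0.08 (SE, limma, adjusted p = 1.04e-04). Edem3, which trims mannose from misfolded glycoproteins, fell from 38.5 ± 2.21 to 27.3 ± 0.485 RPM (mean ± SD, n = 3 each). Herpud1, a stress-induced scaffold of the ligase, was at -0.41 ± 0.10 (SE) and was not called without control library 1 (-0.36). Derl2, a channel component, was at -0.40 ± 0.11 (SE) and was not called without control library 1 (-0.36) or 2 (-0.39). The list's median was -0.19.

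**Figure D5:**
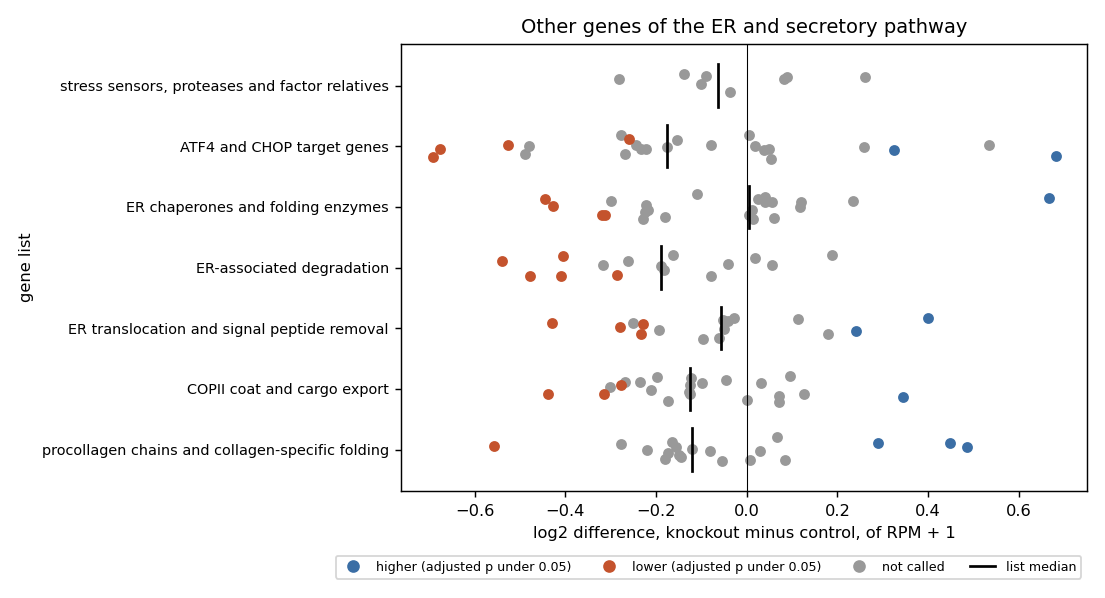
Log2 difference, knockout minus control, of RPM + 1 for the tested genes of 7 pathway lists (points, coloured by the limma call over all amplicons; vertical jitter only separates points), with each list's median as a black line. ER-associated degradation holds 5 lower and 0 higher genes of 15, and the procollagen list 1 lower and 3 higher of 19.

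Entry into the ER had 4 lower (25%) and 2 higher (12.5%) of 16 tested genes for translocation and signal peptide removal. Over all amplicons, these shares were 11.0% and 5.71%. With TMM scaling, 1 of the 16 genes was lower and 2 were higher, against 928 lower and 1042 higher of all 12846 amplicons. Sec11a, a catalytic subunit of the signal peptidase, rose from 339 ± 38.3 to 447 ± 35.8 RPM (mean ± SD, n = 3 each). Sec62, which helps small or slow chains into the channel, was at -0.43 ± 0.11 (SE), and its call was lost without control library 1 (-0.30). Ostc, a subunit of the glycosylating complex, was at -0.28 ± 0.08 (SE), with the call lost without control library 2 (-0.19) or knockout library 2 (-0.28). The Ostc call was also lost with TMM scaling, median-of-ratios factors, edgeR and DESeq2. Srp68, of the signal recognition particle, was at 0.24 ± 0.07 (SE), and its call was lost without control library 1 (0.23), control library 2 (0.24), knockout library 2 (0.21) or knockout library 3 (0.23).

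Exit from the ER, beyond Sec23a and Sec24d, had 3 lower (13.6%) and 1 higher (4.55%) of 22 tested genes. Over all amplicons, these shares were 11.0% and 5.71%. Sar1a, the GTPase that starts coat assembly, read 275, 264 and 286 RPM in controls against 221, 223 and 219 RPM in knockout libraries. Its knockout libraries were as tightly grouped as those of Sec23a, with a log2 difference of -0.31 ± 0.07 (SE, limma, adjusted p = 0.00538). Mcfd2, a partner of the cargo receptor LMAN1, fell from 70.6 ± 4.01 to 51.9 ± 4.14 RPM (mean ± SD, n = 3 each), a log2 difference of -0.44 ± 0.09. Lman1 itself was at -0.28 ± 0.09 (SE), and its call was lost without control library 1 (-0.19) or 2 (-0.28) or knockout library 2 (-0.31) or 3 (-0.21), and with TMM scaling (-0.22). Trappc3, of the tether that receives these vesicles, rose from 163 ± 9.07 to 207 ± 8.04 RPM. Mia3, which encodes TANGO1, the receptor that loads procollagen into the vesicles, read 177 ± 6.27 RPM in controls against 162 ± 12.7 RPM in knockout libraries, a log2 difference of -0.13 ± 0.08 (SE, limma, adjusted p = 0.297).

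The collagen cargo gave a mixed picture. Of 19 procollagen chains and collagen-specific folding genes, 3 were higher (15.8%) and 1 lower (5.26%), against 5.71% and 11.0% of all amplicons. Col1a1 read 26596, 28813 and 30725 RPM in controls against 28618, 24756 and 29634 RPM in knockout libraries, with overlap, a log2 difference of -0.06 ± 0.08 (SE, limma, adjusted p = 0.698) and a value of 0.0014 with TMM scaling. Col1a2 was at -0.14 ± 0.07 (SE, limma, adjusted p = 0.159) and at 0.03 with quantile normalization. Col2a1 and Col10a1, the chains of resting and of hypertrophic cartilage, were at -0.17 ± 0.09 and -0.18 ± 0.09 (SE) and not called. Col3a1, the chain of soft connective tissue, rose from 3410 ± 223 to 4779 ± 402 RPM, Col11a1 from 1009 ± 19.0 to 1233 ± 26.9 RPM, and Plod2, which hydroxylates the lysines used in cross-links, from 274 ± 10.1 to 374 ± 19.1 RPM (mean ± SD, n = 3 each). The lower gene was Fkbp14, an ER prolyl isomerase that binds collagen, from 105 ± 1.30 to 70.7 ± 1.57 RPM, a log2 difference of -0.56 ± 0.08 (SE, limma, adjusted p = 8.69e-05). Serpinh1, the collagen chaperone HSP47, read 1537 ± 28.4 RPM in controls against 1546 ± 48.6 RPM in knockout libraries.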

How the data were processed

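RNA of humerus shafts, in 3 control and 3 knockout libraries, was read with the Ion AmpliSeq mouse transcriptome panel, per the labels' protocols. The authors deposited RPM values for 23930 amplicons in 6 columns. For aligner, counter and build, the sources used here give nothing. Every value above 0 was a whole multiple of 1 read within 0.1 read (100%), which gave depths of 9126493 to 13376550 reads. Without molecular identifiers, reads are not independent molecules. In the table, 27 symbols turned into dates were read back from the amplicon names. Libraries of a group differed beyond counting noise (chi-square per degree of freedom 4.54 to 7.80). Since reads are not independent molecules, this does not show that the libraries came from separate samples. Each library counted once.

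The 12846 amplicons averaging 1 RPM or more were compared on log2(RPM + 1) with limma 3.58.1 in R 4.3.3 (trend, two-sided, Benjamini-Hochberg over all, threshold 0.05). This scale understates the change of low genes. The 10 genes and all lists were chosen with earlier results of these data known. Besides the 10 genes and Stat3, the text names up to 4 called genes per list by size of difference (or the 2 with the highest mean), and Ern1, Eif2ak3, Mbtps1, Mbtps2, Mia3, Serpinh1, Col1a1, Col1a2, Col2a1 and Col10a1. The marker genes, Sec23b and the gene pairs whose ratios are given were picked outside this rule. Alternatives were pseudocounts of 0.1 and 10 RPM, other filters and scalings, no trend, the replicate number as a block, each library left out, and edgeR 4.0.16 and DESeq2 1.42.0 on the recovered reads. The fit was tested on simulated data. Gene positions are from GENCODE M21 by symbol and promoters from RefSeq. Figures used matplotlib 3.10.9.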

Additional observations from a re-analysis of the deposited data

How the results depend on the processing

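Creb3l1 and Sec23a kept their direction under all 17 alternatives, with log2 differences of -1.19 to -0.90 and -0.45 to -0.36. The count of the 10 genes called lower was 4, and it was 1 without a filter, where Sec23a was called and Creb3l1 was not. It was 2 with TMM factors, median-of-ratios factors, edgeR, DESeq2 or no trend, and 2 to 3 with a library left out. The count called higher was 0, and 1 with DESeq2. These counts are a description, since the genes were chosen with this comparison known. Over all amplicons, 733 higher and 1409 lower became 177 and 273 without a filter and 361 and 634 without a trend. Lower calls numbered 928 with TMM factors (1042 higher), 881 with median-of-ratios factors, 877 with quantile normalization, 922 with edgeR and 775 with DESeq2. The higher share of calls was 34.2% as deposited and 52.9% with TMM factors, and these scalings moved the median by 0.05 to 0.06. With a library left out, 442 to 705 were higher and 729 to 1324 lower, with fewest higher and lower calls without control library 2. Other pathway genes numbered 9 higher and 21 lower, then 3 and 6 without a filter, 5 and 10 without a trend, and 8 to 9 and 13 to 21 with a library left out, where 13 was without knockout library 2. Of the 24 called pathway genes named by rule, 17 stayed past the threshold with each library left out, and 6 did so under all 17 alternatives. Without a trend, the calls of Col11a1, Ero1l, Herpud1, Lman1, Manf, Ostc, Sar1a, Sec11a, Sec62, Srp68 and Trappc3 were lost. Same-numbered libraries did not deviate together (correlations 0.01, -0.02 and 0.11), so the numbers were not taken as pairs. With the replicate block, 836 amplicons were higher and 1626 lower. Eif2ak3 was called there (limma, adjusted p = 0.0447), and in 2 of the 17 alternatives in all. The Stat3 log2 difference stayed between -0.17 and -0.02. The cause of these shifts was not tested. Some small values changed sign. Col1a1 was at 0.0014 with TMM factors, 0.0075 with median-of-ratios factors, 0.0026 with edgeR, 0.0089 with DESeq2 and -0.109 to 0.023 with a library left out, above 0 without knockout library 2. Col1a2 was at 0.0312 with quantile normalization. Eif2s1 was at 0.0201 with TMM factors, 0.0261 with median-of-ratios factors, 0.0204 with edgeR, 0.0265 with DESeq2 and -0.0886 to 0.023 with a library left out. Mbtps2 was at -0.2145 to 0.0989 with a library left out, above 0 without control library 1. Serpinh1 was at -0.0525 with quantile normalization and -0.0074 to 0.0337 with a library left out.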

Other observations

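The promoter elements were also counted in the wider pathway, as a description without a test. Of the 20 chaperone and folding genes with a RefSeq window, 6 held the ER stress response element (30%, against 0.137% of all genes with a window): Calr, Canx, Pdia6, Dnajc3, Creld2 and Ero1lb. Calr and Pdia6 were lower in the knockout and the other 4 were not called. In the degradation list it was found in 2 of 14, Syvn1, which was lower, and Derl3, which had 0 to 5 reads per library. Hsp90b1, with 2 such elements, read 2671 ± 193 RPM in controls against 2895 ± 196 RPM in knockout libraries (mean ± SD, n = 3 each). The amino acid response element core was found in 9 of the 23 ATF4 and CHOP target genes with a window (39.1%, against 4.51% of all genes). Of the 8 that were tested, Asns, Nupr1 and Pck2 were lower, Aars was higher and 4 were not called. The genes of this paragraph outside the naming rule were named after their values were seen.

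Outside the tested set, Sec31b, a second outer coat gene, had 8, 6 and 6 reads in control libraries 1 to 3 and 3, 1 and 1 reads in knockout libraries 1 to 3. Scaled for depth, that was 0.687, 0.449 and 0.493 RPM against 0.254, 0.11 and 0.102 RPM, near the floor. Creb3l3, also below the filter, had 1 to 2 reads in every library. Sec31b, Creb3l3 and Trib3 were picked outside the naming rule. Trib3, an ATF4 and CHOP target that rises in strong stress, had 0 to 5 reads in every library.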
